A study of Homo sapiens with 12 samples.

Results

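The enzymes that write, copy and remove methyl groups on cytosine are encoded by a small set of genes, and the place of 8 of them relative to the nuclear lamina was read from maps of lamina-associated domains (LADs, stretches of DNA that touch the lamina) in human embryonic stem cells. The 8 genes, DNMT1, UHRF1, DNMT3A, DNMT3B, DNMT3L, TET1, TET2 and TET3, were chosen by name, by a rule that uses no LAD value though with earlier results of these data known, from 19974 protein-coding genes on the 22 autosomes and X. All cells were of H9, an established embryonic stem cell line, kept without further treatment either in mTeSR medium (primed state) or in RSeT medium (naive state). LADs were mapped by pA-DamID, in which an antibody against lamin B1 (LMNB1) recruits Dam, a bacterial adenine methylase joined to protein A, to the lamina, where it marks GATC sites close by. Each state had 3 LMNB1 libraries and 3 Dam-only libraries as the control for accessibility, 12 libraries in 4 groups, all from this single line. The deposited values were 1 list of LADs per state, made of 10 kb windows with no score, so each value below is that of 1 list and sequencing depth is unknown. No replicate error could be set against a difference between the lists, and no difference was tested. Neither list can check the labelled naive or primed state against marker genes, since RNA was not part of the data used here.

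DNA methylation in mammals falls mainly on cytosines of CpG dinucleotides. DNMT3A and DNMT3B place new methyl groups and DNMT3L, which has no catalytic activity, helps them. DNMT1 copies the pattern after replication, brought to hemimethylated sites by UHRF1, while TET1, TET2 and TET3 oxidise methylcytosine and so start its removal. In human embryonic stem cells the naive state has been described as far lower in global CpG methylation than the primed state. Whether this holds for the RSeT cells used here was not measured. The lists report contact with the lamina and hold no value for methylation or expression.

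TET2 was the single member in a LAD, and it was so in both states. LADs covered 96.9% of its body in naive and 100% of it in primed, and the 1 Mb centred on the gene was in LADs at 99% and 100%. Each of the other 7 genes was covered at 0% in both states, and none of them had a LAD base within its surrounding 1 Mb. Counted by a cover of 50% of the body or more, 1 of 8 members lay in LADs of each state, beside 18.9% of all protein-coding genes in naive and 17.3% in primed. A single base of LAD touched 1 of 8 members in each state, beside 23.8% of all genes in naive and 20.8% in primed. The surrounding 1 Mb was empty of LADs for 7 of 8 members in each state and in both, beside 53.4% of all genes in naive, 59.4% in primed and 49.7% in both. A surrounding 1 Mb of which at least 99% lay in LADs of both states, as around TET2, was found for 3.92% of all genes. No member lay in LADs of naive only or of primed only, against 3.44% and 1.89% of all genes.

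**Figure D1:**
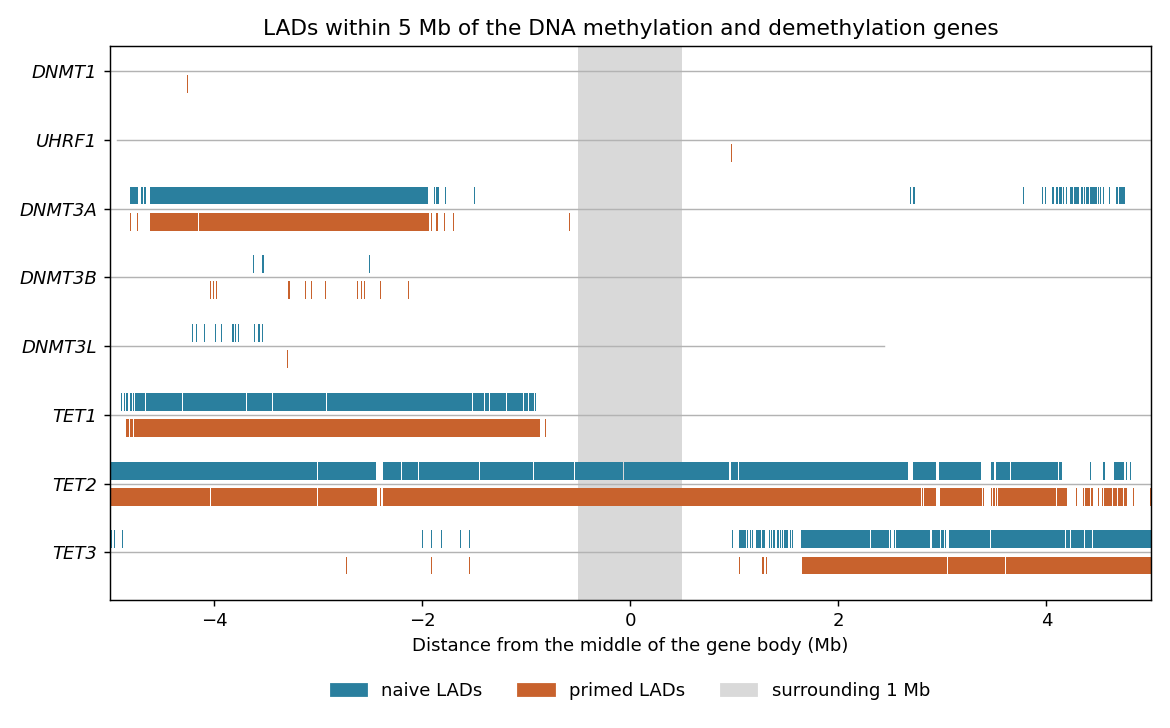
LADs of the naive list (upper bars) and the primed list (lower bars) within 5 Mb of the middle of each gene body, on a horizontal axis in Mb, with the surrounding 1 Mb shaded and a grey line for the analysed part of the chromosome. The shaded region is filled around TET2, at 99% in naive and 100% in primed, and empty around the other 7 genes.

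TET2 (chromosome 4, 105145875 to 105279803, plus strand, 134 kb) encodes a methylcytosine dioxygenase that acts in blood and in many other tissues. In primed it lay deep inside a LAD of 5.17 Mb (chr4:102840001-108010000), 2.31 Mb from its left edge and 2.73 Mb from its right edge. This was the 29th longest of the 5671 primed LADs. In naive most of the gene lay in a LAD of 1.01 Mb (chr4:105150001-106160000) whose left edge falls inside the gene, so that the first 4.13 kb of TET2 lay outside. The stretch left out was a gap of 10 kb, a single window (chr4:105140001-105150000), with a naive LAD of 460 kb on its other side. Both starts of TET2 in the RefSeq promoter table lay in this window, at 105145875 and 105146876. The start of TET2 was thus inside a LAD in primed and outside in naive, while the body was in LADs of both. When LADs less than 50 kb apart were joined, the gap closed and the start was inside in both states. The nearest protein-coding model in a LAD overlapped TET2: LOC124900868, a gene model without an assigned name, was covered at 70.4% in naive and wholly in primed.

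The gap at TET2 was among 9 that cut the naive cover of this primed LAD. Naive LADs covered 97.3% of its length in 10 pieces, the longest of 1620 kb. Of the 9 gaps 7 were single windows, and the longest was 50 kb. The primed LAD held 21 protein-coding genes, all with at least 50% of the body in naive LADs. Of the 19 with a listed start, 17 had the most upstream one in a naive LAD and 2 in a naive gap, TET2 and SLC9B1 (start at 103019705, in a gap of 10 kb). The most upstream listed start of a protein-coding gene was thus absent from 7 of the 9 gaps. Further starts of these genes, TET2 aside, and genes without a listed start were not placed. CXXC4 encodes IDAX, a CpG-binding protein that acts on TET2 and is thought to stem from an ancestral TET2 gene. Its start lies at -651 kb from that of TET2, and body and start were in LADs of both states. A body in LADs of both states with a start outside naive and inside primed LADs was found for 6.15% of the 2520 genes in LADs of both with a listed start. The opposite arrangement was found for 2.98% of them, while 86.4% had the start in LADs of both and 4.44% in LADs of neither. Among all 10 kb windows of primed LADs, 2577 held the most upstream listed start of a protein-coding gene, and 15.0% of these were not in a naive LAD. For the other 129371 windows, which may hold further or unlisted starts, the share was 5.53%. Windows inside long primed LADs were not separated from those at LAD edges or in short primed LADs. These shares are thus not shares of gaps like that at TET2. The reverse split, over windows of naive LADs, was not made.

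**Figure D2:**
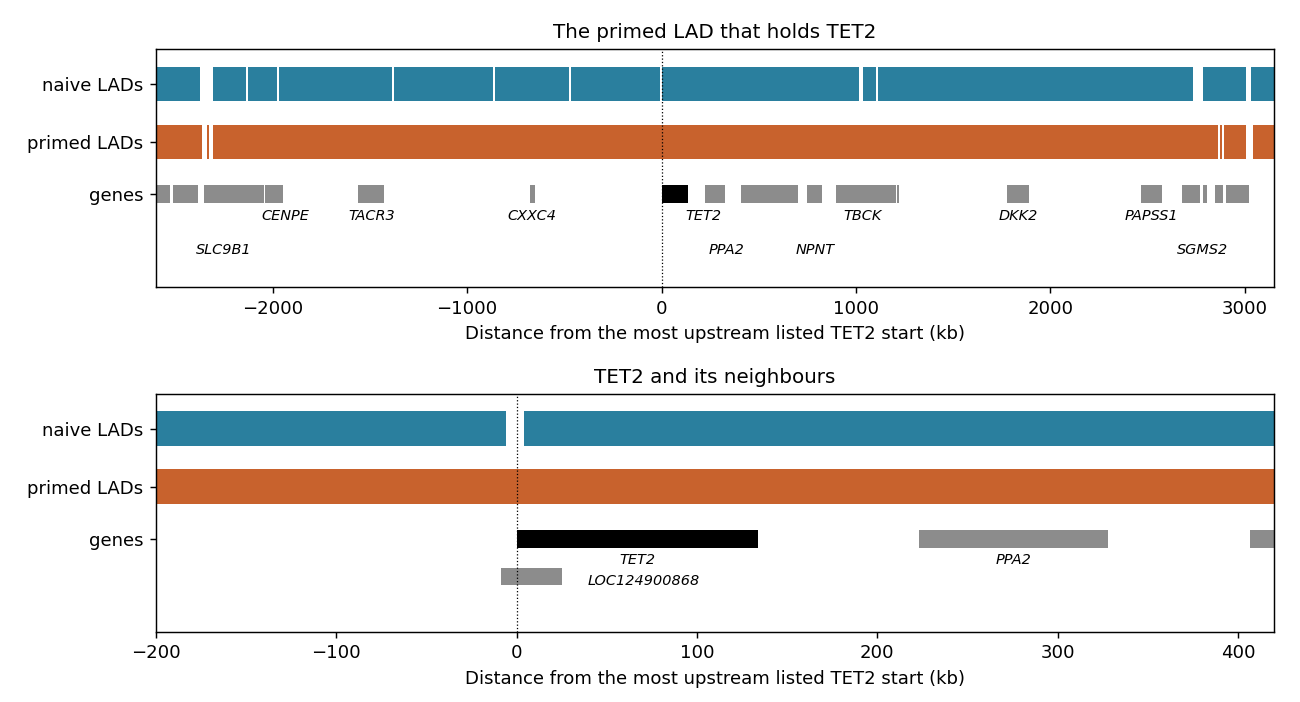
Naive LADs, primed LADs and protein-coding gene bodies against the distance in kb from the most upstream listed TET2 start, for the whole primed LAD (upper panel) and for TET2 and its neighbours (lower panel). White breaks in the naive bar are gaps, and the gap of 10 kb at the dotted line holds the TET2 start, where the primed bar is unbroken.

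The promoter sequences of TET2 at both starts are shown because the naive gap lies over them, and those of TET1 and TET3 at their most upstream listed starts are shown for comparison within the family. Each runs 5′ to 3′ on the gene's own strand from 250 bases before to 50 after the start (RefSeq, GRCh38.p14). Capitals mark each CpG and each GATC, the sequence that Dam methylates.
TET2 first start, chr4:105145625-105145924: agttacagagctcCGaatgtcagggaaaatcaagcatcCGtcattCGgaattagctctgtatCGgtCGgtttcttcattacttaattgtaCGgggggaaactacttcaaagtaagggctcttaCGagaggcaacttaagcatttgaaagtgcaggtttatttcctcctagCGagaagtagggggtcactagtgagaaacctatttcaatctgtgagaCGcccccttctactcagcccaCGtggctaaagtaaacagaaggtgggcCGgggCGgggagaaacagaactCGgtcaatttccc
TET2 second start, chr4:105146626-105146925: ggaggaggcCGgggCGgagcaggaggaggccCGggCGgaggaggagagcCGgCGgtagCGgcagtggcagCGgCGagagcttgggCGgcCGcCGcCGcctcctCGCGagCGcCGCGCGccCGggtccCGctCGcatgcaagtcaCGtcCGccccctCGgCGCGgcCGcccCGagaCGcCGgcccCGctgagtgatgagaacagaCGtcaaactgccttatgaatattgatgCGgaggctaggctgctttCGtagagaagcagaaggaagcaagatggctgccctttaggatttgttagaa
TET1 first start, chr10:68560087-68560386: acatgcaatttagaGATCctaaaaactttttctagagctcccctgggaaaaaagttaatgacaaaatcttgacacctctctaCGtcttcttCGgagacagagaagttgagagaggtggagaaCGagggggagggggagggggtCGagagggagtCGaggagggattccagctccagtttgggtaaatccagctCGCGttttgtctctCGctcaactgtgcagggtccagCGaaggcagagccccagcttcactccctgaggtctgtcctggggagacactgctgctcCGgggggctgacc
TET3 first start, chr2:73984660-73984959: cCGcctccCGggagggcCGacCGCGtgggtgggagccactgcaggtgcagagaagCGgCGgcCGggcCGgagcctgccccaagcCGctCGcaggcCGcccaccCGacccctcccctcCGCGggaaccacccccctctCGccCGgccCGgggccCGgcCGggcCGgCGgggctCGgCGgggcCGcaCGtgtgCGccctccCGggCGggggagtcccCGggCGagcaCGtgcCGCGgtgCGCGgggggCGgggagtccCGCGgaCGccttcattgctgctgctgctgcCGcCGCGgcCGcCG
The first TET2 start had 13 CpG and the second 35, so the CpG-dense one was the second. TET1 had 10 CpG and TET3 had 45 in the same length. Neither TET2 promoter held a GATC, TET1 held 1 and TET3 held 0. Over 22156 promoters of 300 bases from 15813 protein-coding genes the median was 21 CpG, and 40.0% held at least 1 GATC. GATC sites over the whole 10 kb window at the TET2 start were not counted, and their part in the naive gap was not tested.

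The promoter table held 18 starts of 7 members, and DNMT3L was not among them. They had 3 to 46 CpG (median 27), and several overlap, so they are not independent. The lowest was the only listed start of DNMT3B (32779602 to 32779901 on chromosome 20) with 3 CpG. That start, at 32779852, lies inside the gene body, which begins at 32762385 on the plus strand. The CpG number at the upstream end of DNMT3B was thus not counted. A start of DNMT3A and a start of UHRF1 had the highest number, 46. GATC was found in 5 of the 18. Apart from the TET2 starts in primed, none of the 18 starts lay in a LAD of either state.

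TET1 and TET3 lay outside LADs, yet both had a large LAD region to one side. TET1, the TET enzyme best known from embryonic stem cells (chromosome 10, 68560337 to 68694487), was 840.3 kb from the nearest naive LAD and 740.3 kb from the nearest primed LAD, both to the left and both a single window of 10 kb. The nearest LAD of 100 kb or longer was 960.3 kb away in naive and 800.3 kb away in primed, where it measured 3900 kb. CTNNA3, a catenin gene covered at 93.9% and 99.8%, was the nearest protein-coding gene in a LAD in both states, 796.7 kb from TET1. To the right TET1 had no LAD for 5.70 Mb in naive and 7.73 Mb in primed. The TET1 gene thus lay close to the left border of a LAD-free stretch of 6.67 Mb with 80 protein-coding genes in naive, and of 8.60 Mb with 89 in primed. Between 1 and 2 Mb from the middle of TET1, LADs covered 47.5% of the DNA in naive and 50% in primed.

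TET3, the TET enzyme of the oocyte and zygote (chromosome 2, 73983631 to 74135498), was 904.5 kb from the nearest naive LAD and 964.5 kb from the nearest primed LAD, both to the right and both single windows. LADs of 100 kb or longer began 1565 kb away in naive and 1575 kb away in primed. The LAD-free stretch round TET3 was 2.52 Mb in naive and 2.58 Mb in primed, with 45 protein-coding genes in each. It was the shortest among the 7 genes outside LADs. Between 1 and 2 Mb from TET3, LADs covered 36% of the DNA in naive and 20% in primed. The nearest gene in a naive LAD was TACR1, a tachykinin receptor gene with 54.6% of its body in naive LADs and 6.53% in primed ones. In primed it was LRRTM4, a synaptic adhesion gene 2.61 Mb away.

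The 3 genes of the de novo group were all free of LADs, DNMT3A with a LAD region within 2 Mb and DNMT3B and DNMT3L without. DNMT3A (chromosome 2, 25227874 to 25342590) was 1438 kb from the nearest naive LAD and 517.9 kb from the nearest primed LAD, each a single window to the left. The primed window (24700001 to 24710000) had no naive counterpart. At the level of LADs of 100 kb or longer the states were close, with 1888 kb in naive and 1878 kb in primed. To the right the first naive LAD was 2.63 Mb away and the first primed LAD 6.14 Mb away. Beyond 2 Mb and up to 5 Mb from DNMT3A, LADs covered 53.1% of the DNA in naive and 43.8% in primed. PCARE, a photoreceptor gene, was the nearest gene in a naive LAD at 3.72 Mb, and TDRD15, of the Tudor domain family, the nearest in a primed LAD at 4.08 Mb.

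DNMT3B (chromosome 20, 32762385 to 32809356), the de novo enzyme known for its high expression in primed embryonic stem cells, had its nearest LAD 2482 kb away in naive and 2102 kb away in primed. Both were single windows to the left, and the nearest LAD of 100 kb or longer was 15.3 Mb away in naive and 16.3 Mb in primed. These distances count all bases between, and stretches where reads cannot be mapped were not taken out. The LAD-free stretch measured 8.94 Mb in naive and 8.71 Mb in primed, with 127 protein-coding genes in each. DNMT3L (chromosome 21, 44246339 to 44261897) was 3526 kb from the nearest naive LAD and 3286 kb from the nearest primed LAD. It had no LAD between it and the right end of the analysed span in either state, and its nearest LAD of 100 kb or longer was 13.2 Mb away in both. THBD, the thrombomodulin gene (9.71 Mb from DNMT3B), and KRTAP19-8, a hair keratin-associated gene (13.2 Mb from DNMT3L), were the nearest genes in LADs, each covered at 100% in both states.

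DNMT1 and UHRF1, the pair that maintains methylation, both lie on the short arm of chromosome 19, which was almost without LADs. This chromosome had 5 naive and 9 primed LADs, none of 100 kb or longer, and 96.8% of its 1451 protein-coding genes in naive and 89.8% in primed had an empty surrounding 1 Mb. The empty surroundings of DNMT1 and UHRF1 are thus those of nearly all genes of the chromosome. DNMT1 (10133346 to 10194953) was 14.7 Mb from the nearest naive LAD and 4.22 Mb from the nearest primed LAD. UHRF1 (4903080 to 4962154) was 19.9 Mb from the nearest naive LAD and 0.938 Mb from the nearest primed LAD. Both naive values end at the same single window of 10 kb (chr19:24900001-24910000), and how reliably reads map there was not assessed. Both primed values rest on 1 window of 10 kb (chr19:5900001-5910000) that was not called in naive. It covered 85.7% of VMAC, a coiled-coil protein gene, which was covered at 0% in naive. VMAC was the nearest gene in a primed LAD for both DNMT1 and UHRF1, while in naive that gene was CCDC106, 45.5 Mb from DNMT1 and 50.7 Mb from UHRF1. Without LADs under 50 kb chromosome 19 had none in either list, and neither gene then had a distance.

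**Figure D3:**
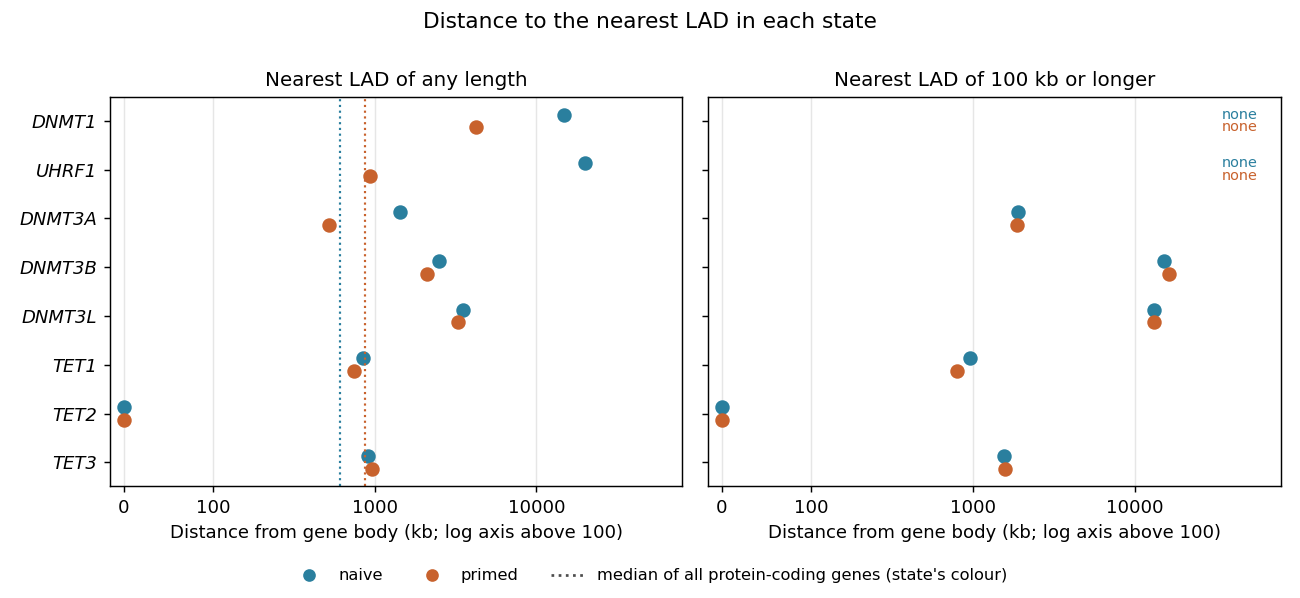
Distance in kb from each gene body to the nearest LAD in naive and primed (log axis above 100 kb), for LADs of any length (left) and of 100 kb or longer (right), with the median of all protein-coding genes dotted in the colour of the state. TET2 is at 0 in both panels, and DNMT1 and UHRF1 have no LAD of 100 kb or longer on their chromosome (none).

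In order of distance in naive, TET2 at 0 was followed by TET1, TET3, DNMT3A, DNMT3B, DNMT3L, DNMT1 and UHRF1. In primed the order was TET2, DNMT3A, TET1, UHRF1, TET3, DNMT3B, DNMT3L and DNMT1. The ranks of neighbours such as TET1 and TET3 in naive (840.3 and 904.5 kb) or UHRF1 and TET3 in primed (937.8 and 964.5 kb) were a few windows apart, and no replicate spread was at hand to separate them. The median over the 8 genes was 1.96 Mb in naive and 0.951 Mb in primed, beside 0.609 and 0.869 Mb over all protein-coding genes. Without LADs under 50 kb the medians were 4294 kb in naive and 7527 kb in primed, so the order of the states turned. The nearest LAD of each of the 7 genes was a single window in both states, but leaving out these short LADs moved the genes unequally. TET1 went from 840.3 to 860.3 kb in naive, whereas DNMT3B went from 2482 to 6701 kb. Of all protein-coding genes, 45.0% in naive lay as far from a LAD as TET1 or farther, 36.0% as far as DNMT3A, 43.8% as far as TET3, 25.3% as far as DNMT3B, 18.3% as far as DNMT3L, 2.49% as far as DNMT1 and 1.11% as far as UHRF1. The same shares in primed were 52.8% for TET1, 58.2% for DNMT3A, 47.9% for TET3, 30.8% for DNMT3B, 21.1% for DNMT3L, 16.8% for DNMT1 and 48.5% for UHRF1. A distance of at least 500 kb was found for 7 of 8 members in each state and in both, beside 52.7% of all genes in naive, 58.7% in primed and 49.0% in both.

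The background differed between the members' chromosomes. On chromosome 4, which carries TET2, 42.7% of the 770 protein-coding genes lay in LADs in naive and 45.7% did so in primed. An empty surrounding 1 Mb was found for 34.5% of the genes of chromosome 2 in naive and 47.9% in primed, and for 38.1% and 52.2% on chromosome 10. It was found for 76.7% and 80.1% on chromosome 20 and for 64.4% and 68.2% on chromosome 21. Gene number within the surrounding 1 Mb differed too, with 6 protein-coding genes overlapping it at TET2 and 9 at DNMT3A, against 15 at TET1, 17 at DNMT3B and at UHRF1, 31 at DNMT3L, 32 at TET3 and 35 at DNMT1.

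Around the core enzymes, 67 related genes were followed in 5 lists, such as those that supply, guide or read DNA methylation. Few of them lay in LADs. In each state 6 of the 67 were in LADs, beside the background of 18.9% and 17.3%, and 5 of these were shared. An empty surrounding 1 Mb in both states was found for 38 of 67, beside 49.7% of all genes. Among 13 partners of maintenance, 0 lay in LADs of either state. Nearest to it came UHRF2, the paralogue of UHRF1 on chromosome 9, covered at 7.25% in naive and 0% in primed, with LADs over 45% and 51% of its surrounding 1 Mb. Among 11 readers of methyl-CpG, MBD2 on chromosome 18 was in LADs of both states (79.9% and 100%), and among 15 genes of demethylation and base excision, GADD45A on chromosome 1 was in naive LADs only (100% and 0%). GADD45A lay 1.67 kb from a primed LAD, and naive LADs covered it whole. TDG, the glycosylase that removes the TET products, was covered at 0% in both states, with LADs over 34.3% of its surrounding 1 Mb in naive and 23.3% in primed.

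Of 15 genes listed as regulators of TET and DNMT3, CXXC4 (100% in both) and TRDMT1 (68.9% in naive and 81.9% in primed) were in LADs of both states. TRDMT1, a DNMT paralogue, methylates transfer RNA and was counted in this list without being such a regulator. Of 13 genes that supply the methyl donor, MTR, the methionine synthase gene (100% in both), and MAT2B, which encodes a subunit of methionine adenosyltransferase (57.4% and 100%), were in LADs of both. MTRR, which reactivates methionine synthase, was in primed LADs only (42% and 61.9%), with the surrounding 1 Mb in LADs at 86.6% in naive and 67.6% in primed.

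**Figure D4:**
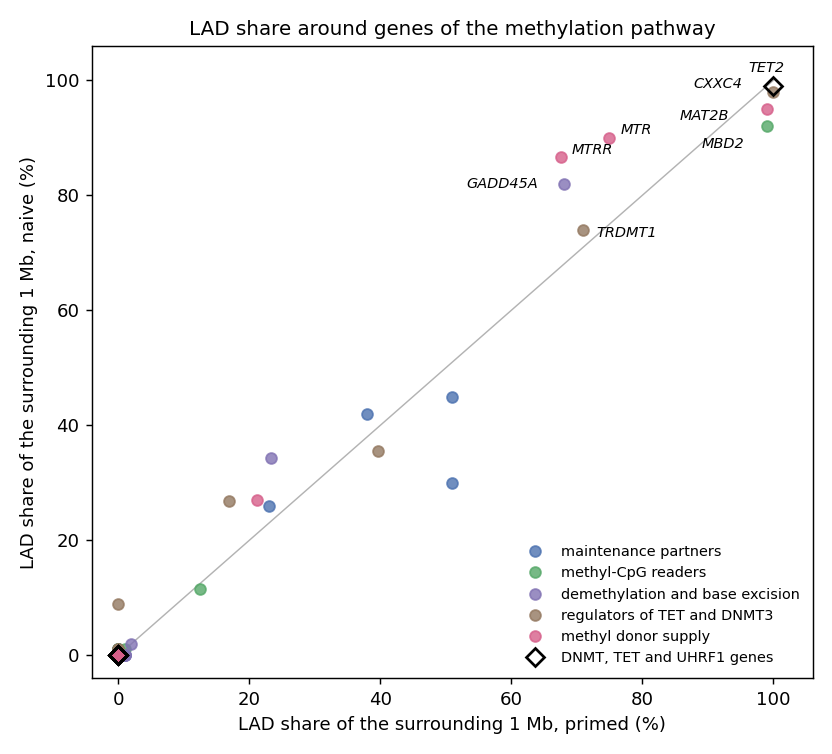
LAD share of the surrounding 1 Mb in primed (horizontal, %) and naive (vertical, %) for the 8 DNMT, TET and UHRF1 genes (diamonds) and 67 genes of 5 related lists (circles), with a line of equal shares. TET2 stands at the upper right corner beside CXXC4, and the other 7 diamonds overlie each other at 0.

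The start of TET2 was not alone in its arrangement within the pathway. With the related lists included, 6 genes had their body in LADs of both states, and 3 of them, TET2, MBD2 and MAT2B, had the start outside naive and inside primed LADs. The MAT2B start lay in a naive gap of 10 kb (chr5:163500001-163510000) and the MBD2 start in a naive gap of 20 kb (chr18:54210001-54230000). The starts of CXXC4 and MTR were in LADs of both states, and the start of TRDMT1 was in a naive LAD and in a primed gap of 60 kb. Both gaps are shorter than 50 kb, so joining LADs less than 50 kb apart closes them, as it does at TET2. TET2, whose start raised the question, is among the 6, and without it MBD2 and MAT2B stand among 5 related genes. These genes are few, and a pattern of the pathway was not tested. The share of 6.15% among all such genes is given above as the background.

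By cover of the body and LAD share of the surrounding 1 Mb in both states (4 values over 2 lists), the genes on other chromosomes most like TET2 were GUCY1A2 on chromosome 11, TMEM232 on chromosome 5 and NOL4 on chromosome 18. GUCY1A2, a guanylate cyclase subunit gene, had 97.1% of its body in naive LADs and 100% in primed ones, with its surrounding 1 Mb in LADs at 99% and 100%, a distance of 0.178 percentage points from TET2. The other 7 members shared the value 0 in all 4 with many genes and were not told apart in this way.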

How the data were processed

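The authors deposited 1 interval list per state, with chromosome, start and end and no score. Per the submitters' processing notes, BWA, SAMtools 1.10, SICER and hg38 were used. Which tool did what, with which thresholds, and how 3 LMNB1 and 3 Dam-only libraries became 1 list is not stated in those notes. All coordinates were multiples of 10 kb. The naive list held 9178 LADs (47.5% of the analysed 3030 Mb) and the primed list 5671 (43.5%). Coordinates are 1-based. Gene bodies came from RefSeq GRCh38.p14, the primary assembly of hg38. Cover of the body, distance from the body to the nearest LAD and LAD share of the 1 Mb centred on the body were computed with Python 3.11.15, numpy 2.4.6 and pandas 2.3.3. A gene was in a LAD at 50% cover or more. Starts were the most upstream ones of the promoter table, read there with strand. The functions were tested on simulated data. The 8 genes and the 5 lists were chosen with earlier results of these data known. All 8 members are named. Further named genes are the nearest gene in a LAD for each state, list genes in a LAD of either state, and the genes most like TET2 (for the other members all values tied at 0). The rule asked for the single gene most like TET2, and TMEM232 and NOL4 were added after the data were seen. UHRF2, TDG, SLC9B1 and the windows and genes at single edges were also named after their values were seen.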

Additional observations from a re-analysis of the deposited data

How the results depend on the processing

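Joining LADs less than 50 or 100 kb apart, leaving out LADs under 50 or 100 kb, and requiring 10% or 90% of the body each kept 1 of 8 members, TET2, in LADs of both states. Judged by the window of the start, listed for 7 members and not for DNMT3L, 0 of these were in LADs in naive and 1 in primed. The gap at the TET2 start is 10 kb long, so joining closed it (a check added after seeing the data). Leaving out short LADs cannot fill a gap, so those settings could not test it. Distances depended on short LADs: the medians of 1960 kb (naive) and 951.2 kb (primed) became 4294 kb and 7527 kb without LADs under 50 kb and 7532 kb and 7527 kb without LADs under 100 kb, with DNMT1 and UHRF1, then without any LAD on their chromosome, counted as farthest. The order of the 2 medians thus turned under the first of these settings. In the 2 Mb centred on TET1, 1 Mb to each side, LADs covered 3.63% in naive and 7.13% in primed. Leaving out single libraries was not run, since the lists do not keep libraries apart. No paired analysis was possible because each state has 1 list and no result comes from a test. Depth is unknown.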
